A study of Mus musculus with 9 samples.

Results

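Zfp36, Zfp36l1, Zfp36l2, Btg1, Btg2, Tob1 and Tob2 encode proteins that speed the removal of messenger RNA, and all 7 were measured among the 9277 genes of the table. They were chosen by name, as the tristetraprolin family and the BTG/TOB family, with earlier results of these data known. The libraries were made from endothelial cells of mouse lung. The Tie1-WT group (n = 4 libraries) came from wild type mice. The Tie1-CR group (n = 5 libraries) came from mice whose Tie1, an endothelial receptor of the angiopoietin pathway, resists proteolytic cleavage. All 9 library names carry PBS and a number, and the numbers of Tie1-WT all come before those of Tie1-CR. If the numbers follow the order of handling, that order cannot be told apart from genotype. The labels give neither age nor sex, nor how the Tie1 allele was made, how or when cells were isolated, or whether every library stands for its own mouse. The p-values therefore measure the spread between these libraries, which may be technical. The comparison asks how transcripts differ when Tie1 resists cleavage.

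Tristetraprolin, the product of Zfp36, and its relatives encoded by Zfp36l1 and Zfp36l2 are zinc finger proteins that bind AU-rich elements in the 3′ untranslated region of short-lived transcripts. They recruit the CCR4-NOT complex, which shortens the poly(A) tail and so starts decay. BTG and TOB proteins bind the deadenylase subunits of the same complex through a shared amino-terminal domain, and TOB proteins also contact the poly(A)-binding protein. Zfp36 and Btg2 are themselves known as early response genes, transcribed soon after a growth or stress signal. BTG and TOB proteins are also known for restraining cell proliferation.

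In Tie1-CR, 4 of the 7 genes fell and none rose, while 2.77% of all genes fell, 1.28% rose and 4.05% did either (limma, Benjamini-Hochberg adjusted p below 0.05 over all genes, two-sided). Zfp36 fell 1.78-fold, Btg2 1.69-fold, Tob1 1.59-fold and Btg1 1.36-fold. In each of these 4 genes every Tie1-CR library lay below every Tie1-WT library, which was so for 6.74% of all genes. Zfp36l1, Zfp36l2 and Tob2 did not pass, and their groups overlapped. The median log2 difference of the 7 genes was -0.44, against -0.03 over all genes. Fold changes are on the scale of log2(CPM + 1), where CPM is a gene's reads scaled to a common library total. In bulk libraries, fewer cells of a type and less RNA per cell cannot be told apart.

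**Figure D1:**
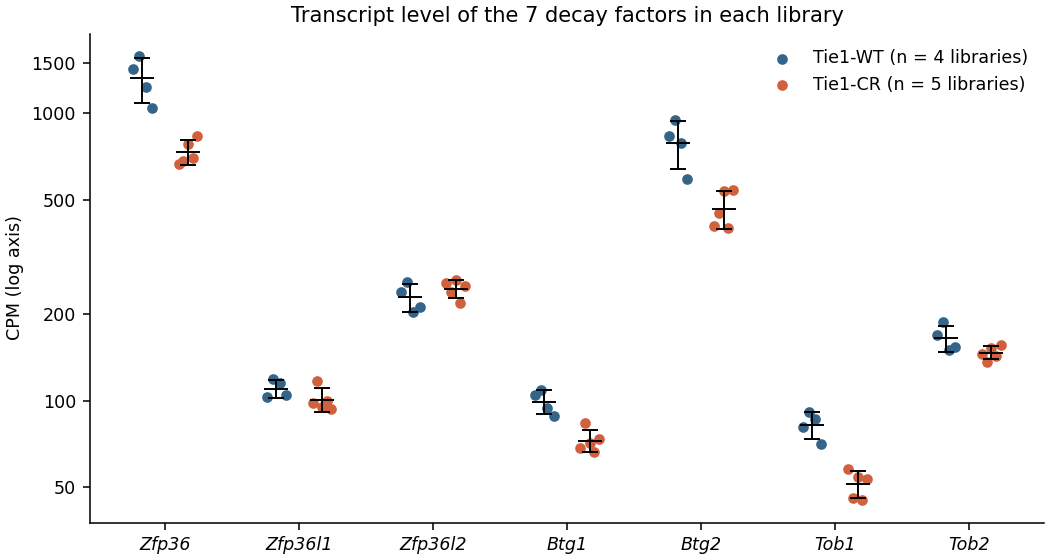
CPM on a log axis for the 7 genes in each library, with Tie1-WT in blue and Tie1-CR in orange; black marks are the mean and SD. The orange points of Zfp36, Btg1, Btg2 and Tob1 lie below all blue points of the same gene, and those of the other genes overlap.

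The elements through which these factors act, and which some of their own transcripts carry, can be seen in the sequences below. The core site of the tristetraprolin family was searched as the heptamer TATTTAT in the annotated 3′ untranslated region of 1 transcript per gene (GENCODE M21, GRCm38), the one with the longest coding sequence. At most 1 site per transcript is shown, 5′ to 3′, with the heptamer in capitals and written with T as in the reference. The first lines are the decay factors whose transcripts hold a site, and the last are the described targets that fell in Tie1-CR and hold a site. Nfkbiz, the described target with the largest fall, held 0 sites in the transcript searched and has no line.
Zfp36: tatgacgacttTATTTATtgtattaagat
Zfp36l1: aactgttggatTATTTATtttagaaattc
Zfp36l2: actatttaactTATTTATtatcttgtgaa
Btg2: aaatgaagagcTATTTATacatgtttttt
Tob2: tatcacctgctTATTTATgtacgaggttg
Fos: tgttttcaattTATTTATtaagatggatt
Plk3: tggaccactttTATTTATtaacagacatt
Ptgs2: tctactgaccaTATTTATttatttatgtg
Ier3: tgtctaattaaTATTTATgtatttatgta

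Zfp36, Zfp36l1 and Zfp36l2 each held 3 heptamers, Btg2 and Tob2 held 1 each, and Btg1 and Tob1 held 0. The heptamer occurred in 29.3% of the 8773 genes with an annotated region, and its frequency rises with length. Among genes with a region of like length, 20.4% held one beside Zfp36 (774 bases), 39.3% beside both Zfp36l1 (1835 bases) and Zfp36l2 (1822 bases), and 41.4% beside Btg2 (2199 bases). Btg1, with 4166 bases, held none although 58.6% of genes of like length did. The longer form TTATTTATT was present once in each of the 3 tristetraprolin family transcripts and in 7.43% of all genes. A match is a description of the letters and not evidence of binding.

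The 250 bases before the RefSeq start site were searched for 11 short motifs, because genes of this set are known to answer signals through nearby promoter elements. Capitals mark matches to the motifs named after the sequences, on either strand except for the TATA box, and overlapping matches run together. For Zfp36 and Tob1 only 30 bases around 1 match are shown. The Zfp36 window lies inside the gene as GENCODE M21 draws it, in an untranslated stretch. The window searched for Tob2, which is not shown, also lies inside its gene as drawn there.
Zfp36, chr7:28379267-28379296, minus strand, CArG box in capitals: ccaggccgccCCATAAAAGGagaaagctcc
Tob1, chr11:94211395-94211424, plus strand, TATA box in capitals: cggggaggaggcTATAAAacgagaggcggg
Btg2, chr1:134079156-134079405, minus strand: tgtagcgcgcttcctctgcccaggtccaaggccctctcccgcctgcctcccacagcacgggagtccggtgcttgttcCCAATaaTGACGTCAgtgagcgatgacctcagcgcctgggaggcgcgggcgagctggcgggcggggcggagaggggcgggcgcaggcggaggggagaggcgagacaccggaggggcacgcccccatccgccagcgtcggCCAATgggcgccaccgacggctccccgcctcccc
Btg1, chr10:96616751-96617000, plus strand: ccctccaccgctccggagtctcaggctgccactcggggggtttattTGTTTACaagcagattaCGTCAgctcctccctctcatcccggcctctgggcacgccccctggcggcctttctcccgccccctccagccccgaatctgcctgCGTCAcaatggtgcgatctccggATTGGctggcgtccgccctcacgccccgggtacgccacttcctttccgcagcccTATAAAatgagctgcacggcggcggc

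A CArG box, the element read by serum response factor, lay 58 to 49 bases before the Zfp36 start site and in 1.47% of all 32851 promoter windows. The full cyclic AMP response element TGACGTCA lay 166 to 159 bases before the Btg2 start site and in 1.55% of windows. The shorter form TGACG was present in Btg2, Btg1 and Tob1 and in 17.8% of windows. Zfp36 also held the KLF site CCACGCCC (4.79% of windows) and the STAT site TTCNNNGAA (7.02%). Btg1 held the FOXO site GTAAACA (3.17%). The TATA box TATAAA, searched on the gene's strand only, was present in Btg1, Tob1 and Zfp36l1 (7.59%), and CCAAT in Btg1, Btg2, Tob1 and Zfp36l1 (33.8%). The AP-1 site TGANTCA matched in Zfp36l1 (6.75%), and the EGR site GCGTGGGCG and the NF-kB site matched in none of the 6 windows searched, those of all the genes but Zfp36l2. No motif of this search was present in all 4 genes that fell. The shares of windows were not matched for G and C content. Its median over all windows was 52.4%, against 73.2% for Btg2, 73.6% for Tob1, 65.2% for Btg1 and 64.8% for Zfp36.

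Zfp36 lies on chromosome 7 (28376784 to 28380253, GRCm38). It measured 1424, 1584, 1234 and 1039.7 CPM in Tie1-WT replicates 1 to 4, and 667, 684, 781, 699.6 and 835 CPM in Tie1-CR replicates 1 to 5. The lowest Tie1-WT library was thus 204 CPM above the highest Tie1-CR library. The means were 1321 ± 236 CPM (SD, n = 4) and 733 ± 71.9 CPM (SD, n = 5), a log2 difference of -0.84 (SE 0.11, 95% interval -1.09 to -0.58). The limma adjusted p was 0.00485, rank 25 of all genes by p, and the exact permutation p was 0.00794 (two-sided), the smallest that 4 libraries against 5 can give. An antisense gene, Gm44710, overlaps Zfp36, and since strand use in counting is not given, reads of the 2 cannot be told apart.

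Zfp36l1 (chromosome 12, 80107754 to 80113013) measured 103, 119, 115 and 105 CPM in Tie1-WT and 98.2, 118, 95.2, 100.0 and 93.9 CPM in Tie1-CR, in replicate order. Of the Tie1-CR libraries, 4 lay below the Tie1-WT range and replicate 2 lay inside it. The log2 difference was -0.13 (95% interval -0.29 to 0.03, limma adjusted p = 0.315). Zfp36l2 (chromosome 17, 84183931 to 84187947) measured 239.9, 259.9, 203 and 213 CPM in Tie1-WT and 256, 239, 262, 219 and 251 CPM in Tie1-CR. It was the only one of the 7 genes with a value above 0, 0.10 log2 (95% interval -0.07 to 0.28, limma adjusted p = 0.457). With single libraries left out, Zfp36l2 ran from 0.05 (without Tie1-WT replicate 3) to 0.17 log2 (without Tie1-WT replicate 2), and Zfp36l1 from -0.18 to -0.09. The intervals leave out a fall as large as that of Zfp36. Zfp36l1 and Zfp36l2 also overlap a gene on the other strand, Gm26669 and AC132455.1, and Zfp36l1 has a named pseudogene, which leaves their levels less certain.

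Btg2, the early response member of the BTG genes and a known p53 target, lies on chromosome 1 (134075170 to 134079120). It measured 835, 951, 787 and 589 CPM in Tie1-WT and 405, 449, 538, 397 and 539 CPM in Tie1-CR. Tie1-WT replicate 4 was the lowest of its group and came within 50.3 CPM of the highest Tie1-CR library. The means were 791 ± 151 CPM (SD, n = 4) and 466 ± 69.4 CPM (SD, n = 5), a log2 difference of -0.75 (SE 0.14, limma adjusted p = 0.0152, exact permutation p = 0.00794). Btg1 (chromosome 10, 96617006 to 96622809), its more evenly expressed relative, measured 105, 109, 94.4 and 88.8 CPM in Tie1-WT and 68.8, 83.6, 71.1, 66.6 and 73.9 CPM in Tie1-CR. Only 5.22 CPM separated the groups. The means were 99.4 ± 9.49 CPM (SD, n = 4) and 72.8 ± 6.63 CPM (SD, n = 5), a log2 difference of -0.44 (SE 0.08, limma adjusted p = 0.013, exact permutation p = 0.0159). Btg1 has 2 named pseudogenes, so its level is less certain. With Tie1-WT replicate 1 left out neither gene passed, at a log2 difference of -0.72 for Btg2 and -0.42 for Btg1 (limma adjusted p = 0.066 and 0.0613).

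Tob1, which links the deadenylase to the poly(A)-binding protein, lies on chromosome 11 (94211454 to 94215495). It measured 81.4, 91.6, 86.2 and 70.6 CPM in Tie1-WT and 58.0, 46.0, 54.6, 45.1 and 53.3 CPM in Tie1-CR. The groups were 12.7 CPM apart, with Tie1-WT replicate 4 the lowest of its group. The means were 82.5 ± 8.92 CPM (SD, n = 4) and 51.4 ± 5.61 CPM (SD, n = 5), a log2 difference of -0.67 (SE 0.09). Its limma adjusted p, 0.00436, was the smallest of the 7 genes (rank 23 of all genes; exact permutation p = 0.00794). If each step of the table's values is 1 read, which could not be verified, Tob1 rested on 1757 to 4180 reads per library. Tob2 (chromosome 15, 81848272 to 81858796) measured 169.9, 188, 150.0 and 153 CPM in Tie1-WT and 146, 137, 152, 143 and 156 CPM in Tie1-CR. The log2 difference was -0.16 (95% interval -0.32 to -0.01, unadjusted p = 0.0364, limma adjusted p = 0.19), and the groups overlapped. The antisense gene Gm49476 overlaps Tob2.

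**Figure D2:**
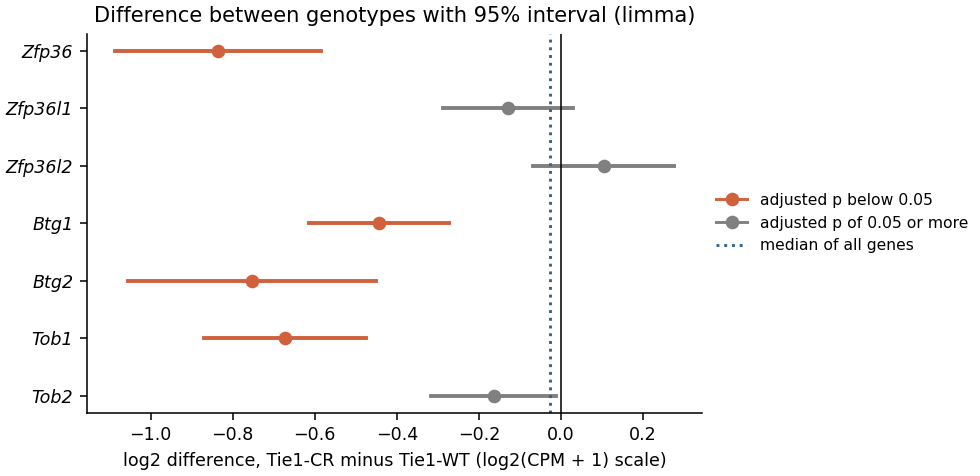
Log2 difference (Tie1-CR minus Tie1-WT, log2(CPM + 1) scale) of each gene with its 95% interval from limma; orange marks genes past the threshold and the dotted line is the median of all genes. Zfp36 (-0.84), Btg2 (-0.75), Tob1 (-0.67) and Btg1 (-0.44) lie to the left of Tob2 (-0.16), Zfp36l1 (-0.13) and Zfp36l2 (0.10).

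A gene that passes beside a relative that does not is no test of a difference, so 4 pairs of relatives were compared within libraries by exact permutation, with Benjamini-Hochberg adjustment over the 4 pairs. Zfp36 differed from both of its relatives. The log2 ratio of Zfp36 to Zfp36l2 was 2.51 ± 0.15 (SD, n = 4) in Tie1-WT and 1.57 ± 0.14 (SD, n = 5) in Tie1-CR, a change of -0.94 (exact permutation p = 0.00794, adjusted p = 0.0106). For Zfp36 and Zfp36l1 the change was -0.71 (adjusted exact p = 0.0106). Tob1 differed from Tob2 by -0.51 (adjusted exact p = 0.0106), from -0.99 ± 0.14 (SD, n = 4) to -1.50 ± 0.12 (SD, n = 5). In these 3 pairs the ratios of the groups did not overlap. Btg2 and Btg1 both fell, and the difference between their effects, -0.31, did not pass (adjusted exact p = 0.0556). Without Tie1-WT replicate 4 it was -0.39 and passed (adjusted exact p = 0.0357).

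**Figure D3:**
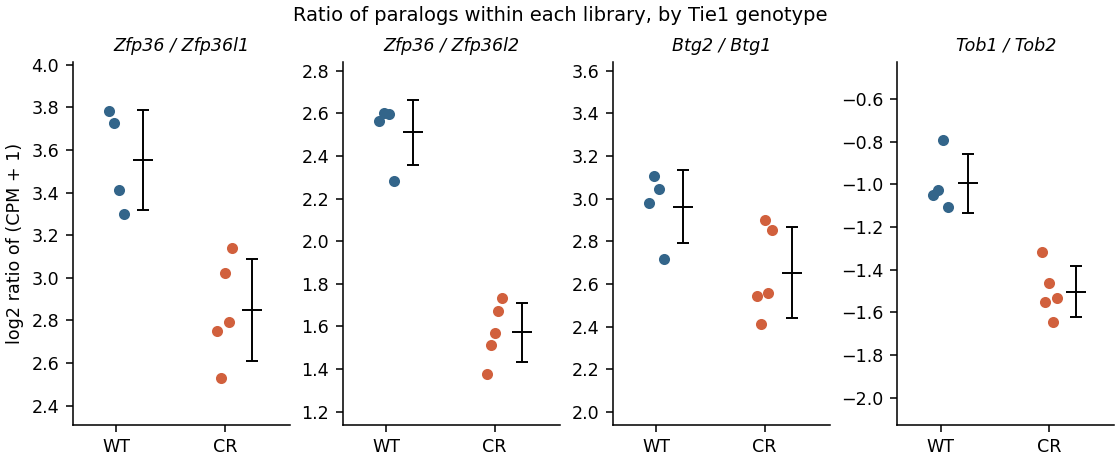
Log2 ratio of (CPM + 1) between 2 related genes within each library, with Tie1-WT (WT, 4 libraries) in blue and Tie1-CR (CR, 5 libraries) in orange; black marks are the mean and SD, and all panels span the same range. The groups are apart for Zfp36 against Zfp36l1, Zfp36 against Zfp36l2 and Tob1 against Tob2, and overlap for Btg2 against Btg1.

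Levels of different genes were compared only as CPM per kilobase of the chosen transcript. In Tie1-WT the order was Zfp36 (473 ± 84.4 CPM per kilobase, SD, n = 4), Btg2 (288 ± 54.9), Zfp36l2 (64.9 ± 7.31), Tob2 (39.8 ± 4.17), Zfp36l1 (36.9 ± 2.61), Tob1 (36.0 ± 3.90) and Btg1 (19.9 ± 1.90). Tob2, Zfp36l1 and Tob1 overlapped and had no clear order. In Tie1-CR (n = 5) the sequence of genes was the same, with Zfp36 at 263 ± 25.8 and Btg2 at 170 ± 25.3 CPM per kilobase. There Tob2 and Zfp36l1 still overlapped, while Tob1, at 22.5 ± 2.45, no longer overlapped Zfp36l1 (33.8 ± 3.22) or Tob2 (35.4 ± 1.84 CPM per kilobase). Zfp36 made up 82.1% ± 1.74 (SD, n = 4) of the summed level of the 3 tristetraprolin family genes in Tie1-WT and 71.7% ± 2.17 (SD, n = 5) in Tie1-CR. Tob1 made up 47.5% ± 2.42 and 38.7% ± 2.05 of the 2 TOB genes. The RefSeq model of Zfp36 starts further downstream than the GENCODE transcript used, so its level per kilobase may be understated.

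Within genotypes, Zfp36 and Btg2 varied together. Their deviations from the genotype means over the 9 libraries had a Pearson r of 0.94 and a Spearman rho of 0.88 (exact permutation p = 0.00243 and 0.00833, over all orders within genotypes). After adjustment over the 21 pairs of the 7 genes this missed the threshold (exact permutation, adjusted p = 0.051), and without the 2 libraries farthest from the median r was 0.85. With single libraries left out, the adjusted exact p ran from 0.0365 (without Tie1-CR replicate 2 or replicate 4, where the pair passed) to 0.299 (without Tie1-WT replicate 1). Tie1-WT replicate 4 was the lowest of its group in Zfp36, Btg1, Btg2 and Tob1, and replicate 2 the highest. Of the 21 pairs, 17 had an r above 0, 3 had an unadjusted exact p below 0.05 and 0 passed. The 4 pairs at or below 0 all held Zfp36l1, which had an r of -0.04 with Zfp36.

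**Figure D4:**
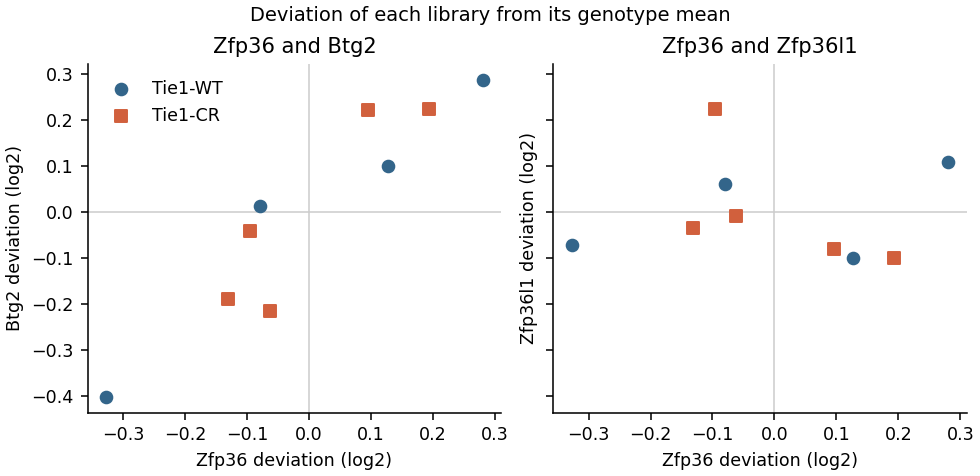
Deviation of each library from the mean of its genotype (log2) for Btg2 and for Zfp36l1 against Zfp36; circles are Tie1-WT and squares Tie1-CR libraries. The points rise together for Btg2 (Pearson r = 0.94) and show no such order for Zfp36l1 (r = -0.04).

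The genes whose deviations were most like those of each factor, over the same 9 libraries and without a test, were Kcnj2, Phldb2 and Wdr47 for Zfp36 (Pearson r = 0.95 for each) and Tmem87b, Kcnj2 and Wdr47 for Btg2 (0.97, 0.97 and 0.96). Hoxa5, Slc2a1 and Ttll5 were most like Btg1 (0.97, 0.97 and 0.96), and Zbtb2, Ptpn21 and Vps37c most like Tob1 (0.97, 0.97 and 0.96). For Tob2 they were Lats2, Ppp2r1b and Idh1 (0.93, 0.91 and 0.90), for Zfp36l1 Zfp865, Eln and Anks3 (0.98, 0.97 and 0.97), and for Zfp36l2 Rnf146, Marveld1 and Rnf144a (0.92, 0.91 and 0.90). These are the highest of the 9277 genes, with predicted genes (Gm or Rik names) left out, over only 9 libraries. Of the genes named here, only Marveld1 passed between genotypes, where it rose 1.24-fold (limma adjusted p = 0.029).

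Of all genes, 58.5% had a log2 difference below 0 and 22.3% an unadjusted p below 0.05, and the lists of the decay machinery that these factors recruit are given beside those shares. Of 14 measured deadenylase and poly(A)-binding genes, 1 fell and 0 rose, with a median log2 difference of -0.08. Of these, 13 were below 0 (92.9%) and 3 had an unadjusted p below 0.05 (21.4%). The one that fell was Pabpc1, the main cytoplasmic poly(A)-binding protein gene, which measured 68.0 ± 3.16 CPM (SD, n = 4) in Tie1-WT and 50.9 ± 2.68 CPM (SD, n = 5) in Tie1-CR, with no overlap of the groups (limma adjusted p = 0.00372). Cnot7 and Cnot8, the deadenylase subunits that BTG and TOB proteins bind, differed by -0.13 and -0.03 log2 (limma adjusted p = 0.258 and 0.775; both named after their values were seen). Among 19 decapping, 5′ decay and translational repression genes 0 passed (limma), with a median of -0.09. Of these, 15 were below 0 (78.9%) and 5 had an unadjusted p below 0.05 (26.3%). Ddx6, a helicase of decapping, and Gigyf2, a translational repressor that binds tristetraprolin, differed by -0.19 and -0.16 log2 (limma adjusted p = 0.0763 and 0.0692). Edc4 and Edc3, which assist decapping, differed by 0.08 and 0.10. None of the 14 exosome and SKI genes passed (limma; 9 were below 0 and 1 had an unadjusted p below 0.05), with a median of -0.05. Skiv2l, the SKI helicase, differed by 0.16 log2 and the exosome subunits Exosc10 and Exosc9 by 0.01 and -0.12, and the sign of Exosc10 turned without single libraries.

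**Figure D5:**
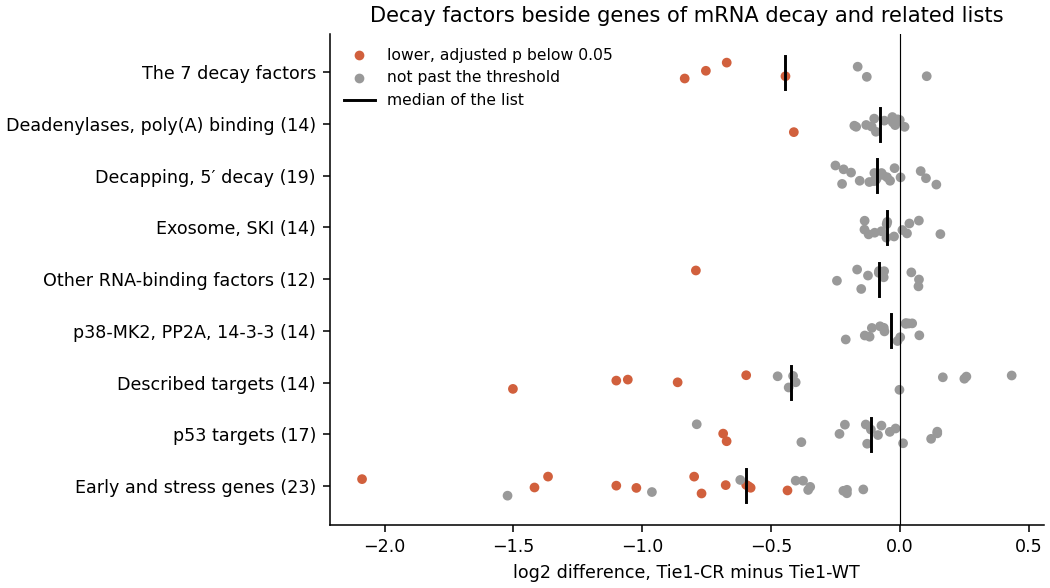
Log2 difference (Tie1-CR minus Tie1-WT) of each measured gene in the 7 decay factors and 8 related lists, with the number of genes in parentheses; orange points fell past the threshold and black bars are list medians. The decay machinery lists lie near 0 with medians from -0.09 to -0.05, while the described targets (-0.42) and the early and stress genes (-0.60) lie lower.

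Among 12 other proteins that bind AU-rich or stem-loop elements, 1 fell and 0 rose, with a median of -0.08, and 9 were below 0 and 5 had an unadjusted p below 0.05 (41.7%). Arid5a, which is known to stabilise inflammatory transcripts, fell 1.73-fold, with 175 ± 32.9 CPM (SD, n = 4) in Tie1-WT and 100.2 ± 13.9 CPM (SD, n = 5) in Tie1-CR (limma adjusted p = 0.00861). Of 14 kinase, phosphatase and 14-3-3 genes that act on tristetraprolin, 0 passed and 0 had an unadjusted p below 0.05 (limma), with 8 below 0 and a median of -0.04. Ywhab, a 14-3-3 protein, and Ppp2r1a, the PP2A scaffold, differed by -0.06 and -0.01 log2, the latter above 0 with TMM or median-of-ratios scaling (0.02 with each). Ppp2cb, a PP2A catalytic subunit, and Map2k6, a p38 kinase kinase, differed by -0.14 and -0.21 log2 (limma adjusted p = 0.248 and 0.264). Btg3, Btg4 and Zfp36l3, the remaining relatives, were not among the measured genes.

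Of 26 transcripts described as targets of the tristetraprolin family, 14 were measured. Of these, 5 fell and 0 rose, with a median of -0.42 log2, and 10 of the 14 were below 0 (71.4%, against 58.5% of all genes). An unadjusted p below 0.05 was found in 11 of the 14 (78.6%, limma, against 22.3% of all genes), and 2.77% of all genes fell. The list was put together with earlier results on some of its genes known, so its direction is not independent evidence. Its genes that were not measured are all cytokine or chemokine genes, such as Tnf, Il6 and Cxcl2, so the counts do not describe that part of the list. Nfkbiz, an inhibitor-like protein that acts on NF-kappaB in the nucleus, fell 2.83-fold, Fos, an AP-1 subunit, 2.15-fold, and Ptgs2, the inducible cyclooxygenase, 2.08-fold. Plk3, a polo-like kinase, fell 1.82-fold, with 97.4 ± 27.3 CPM (SD, n = 4) in Tie1-WT and 52.1 ± 10.01 CPM (SD, n = 5) in Tie1-CR, and with overlapping groups (limma adjusted p = 0.0287). Ier3, an early stress gene named after its values were seen, was the fifth (limma adjusted p = 0.0473). With any of Tie1-WT replicates 1 to 3 left out, or Tie1-CR replicate 3, the list had 3 falls. Plk3 passed in only 3 of the 9 fits that left out a library, and did not pass with a robust variance fit (limma adjusted p = 0.0543). The heptamer was present in 11 of the 14 transcripts, a share that the choice of described targets partly fixes, and was not found in Nfkbiz, Myc and Vegfa. The regions searched in these had 1355, 442 and 315 bases, and other transcripts of the same genes were not searched.

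Of 17 measured p53 target genes other than Btg2, 2 fell and 0 rose (2.77% of all genes fell), with a median of -0.11 log2 and 13 below 0 (76.5%). Of the 17, 7 had an unadjusted p below 0.05 (41.2%, limma, against 22.3% of all genes). The 2 that fell were Pmaip1, a pro-apoptotic BCL2 family gene (38.3 ± 3.96 to 23.6 ± 1.02 CPM, limma adjusted p = 0.00105), and Plk2, another polo-like kinase (limma adjusted p = 0.0241). With any of Tie1-WT replicates 1 to 3 left out, or Tie1-CR replicate 4, Plk2 did not pass and 1 gene was left. Cdkn1a, the cell cycle inhibitor named after its values were seen, differed by -0.79 log2 with a larger spread (SE 0.25, limma adjusted p = 0.0928).

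Early and stress genes that are reported to move when tissue is dissociated were lower in Tie1-CR beside Zfp36, Btg2 and Tob1. All 23 measured genes of this list were below 0 (58.5% of all genes were), 12 fell and 0 rose, and the median was -0.60 log2. Of the 23, 18 had an unadjusted p below 0.05 (78.3%, limma, against 22.3% of all genes), and 2.77% of all genes fell. The list was drawn up without the 7 decay factors, so their absence does not set them apart from its genes. It was also chosen with earlier results of these data known, so its direction is not independent evidence. Fos, Ier3 and Dusp1 stand both in this list and among the described targets. Examples are Egr1 (2.67-fold lower), Atf3 (4.25-fold) and Fosb (2.58-fold). The mean log2 level of the list ran from 8.08 to 8.65 over the Tie1-WT libraries, with replicate 4 the lowest, and from 7.43 to 7.84 over the Tie1-CR libraries, with no overlap. Within genotypes, Tob1 followed this mean over the 9 libraries (Pearson r = 0.89, Spearman rho = 0.80, exact permutation p = 0.00208 and 0.0257, adjusted p of r over 7 genes = 0.0146), with r = 0.75 without the 2 farthest libraries. This relation missed the threshold when Tie1-WT replicate 2 or 4 was left out (adjusted exact p = 0.0583 and 0.165), or Tie1-CR replicate 2 or 4 (0.0729 for each). Btg2 (r = 0.76) and Zfp36 (r = 0.70) did not pass (adjusted exact p = 0.162 and 0.173), with r = 0.24 and 0.44 without the 2 farthest libraries. The part of this early and stress response in the falls of the decay factors was not tested. Without Tie1-WT replicate 1 the list had 5 falls, without replicate 2 6 and without replicate 3 7, and without Tie1-CR replicate 4 it had 8.

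The libraries were endothelial by their markers, with all 12 listed endothelial genes measured, 1 of them lower in Tie1-CR (Erg), and a summed level of 20082 to 21596 CPM in Tie1-WT and 21525 to 23103 CPM in Tie1-CR. Of 16 epithelial markers 10 were measured, 2 of them, Sftpd and Cyp2f2, were higher in Tie1-CR (limma), and their sum was 443 to 819 CPM in Tie1-WT and 653 to 970.2 CPM in Tie1-CR, so the groups overlapped. The median log2 difference of the 10 was 0.85, above that of any other list here, and Sftpd and Cyp2f2 differed by 1.14 log2 each (limma adjusted p = 0.044 and 0.0428). Both were low, with means of 5.88 and 4.95 CPM in Tie1-WT and 13.3 and 11.6 CPM in Tie1-CR. With a robust variance fit or the replicate block 0 of the 10 were higher. With single libraries left out, 4 were higher without Tie1-WT replicate 4, 1 without Tie1-CR replicate 2 and 0 without any other. Sftpc measured 189.9 ± 125 CPM (SD, n = 4) and 307 ± 91.2 CPM (SD, n = 5), and Scgb1a1 5.15 ± 1.64 and 6.37 ± 5.66 CPM. With the mean of these 10 genes as a covariate the log2 differences were -0.85 for Zfp36, -0.78 for Btg2, -0.65 for Tob1 and -0.43 for Btg1, and none of the 4 passed (limma adjusted p = 0.0643, 0.111, 0.0727 and 0.126). The part of the epithelial signal in the falls was not tested further. In that fit 2 described targets, 1 p53 target, 3 early genes and 0 of the other AU-rich binders fell, and 23 of all genes. Of 17 leukocyte markers 2 were measured, without Ptprc. Cd68, a macrophage marker, fell by 0.90 on the log2 scale (limma adjusted p = 0.0064), and its mean level was 5.30 CPM in Tie1-CR against 10.7 in the wild type. Lyz2, a lysozyme gene, measured 37.8 ± 21.8 and 76.2 ± 21.9 CPM, a difference of 1.11 log2 (limma adjusted p = 0.0669). Their part in the falls was not tested. Of 12 mesenchymal markers 6 were measured, with Col1a1 at 9.05 ± 6.65 and 7.12 ± 3.85 CPM. Of 9 erythrocyte and platelet markers 3 were measured, with Pf4 at 6.50 ± 3.12 and 7.84 ± 1.62 CPM.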

How the data were processed

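RNA was sequenced from lung endothelial cells in 4 Tie1-WT and 5 Tie1-CR libraries. Per the labels' protocols, libraries were made with an amplifying low-input cDNA kit. STAR 2.7 and the builds GRCm38.p6 and mm10 stand in the submitters' processing notes. No source used here names the counting tool or says how genes were filtered. The authors deposited 1 table under the name of TPM, but its values have the form of CPM: 100.0% are whole multiples of 1 step per library (tolerance 0.01 reads), which would make 38208696 to 54408116 reads per library if a step is 1 read. Each gene reaches at least 10.0 CPM in some library. The planned tests of counts were not run, because the steps could not be verified from the low values alone. No 2 libraries agreed within counting error (lowest chi-square per degree of freedom 21.4).

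The analysis used log2(CPM + 1), and a minimum of 1 CPM in 4 or more libraries removed 0 genes. All 9277 genes were fitted with limma 3.58.1 (R 4.3.3, trended empirical Bayes, threshold 0.05), which was checked on simulated data. The genes, lists and tests were chosen with earlier results of these data known. Named genes are the 7 factors, the 3 genes most alike to each, and of each list up to 4 genes past the threshold by adjusted p or, with none, the 2 highest and the 2 of smallest p. Predicted genes (Gm or Rik names) were left out of the search for genes most alike. Sequences are from RefSeq (GRCm38.p6) and GENCODE M21. Of the 7 genes, 6 had a promoter entry. Alternatives covered pseudocount, filter, scaling, variance model, library weights, replicate block, an epithelial covariate, the threshold and each library left out. Those of the correlations were chosen after seeing the data. Plots were drawn with matplotlib 3.10.9.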

Additional observations from a re-analysis of the deposited data

Results flagged for a closer look

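Zfp36l1 measured 118 CPM in Tie1-CR replicate 2, while the other 4 Tie1-CR libraries lay between 93.9 and 100.0 CPM. The gap to the nearest library took up 0.744 of the group's range, above the limit of 0.71 for 5 samples. It was the only one of 58 groups of values tested, and chance marks about 1 group in 20.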

How the results depend on the processing

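The 4 falls kept direction and call under 11 of 12 alternative settings. The exception was the epithelial covariate, where 0 passed (-0.85 log2 for Zfp36, -0.43 for Btg1, -0.78 for Btg2 and -0.65 for Tob1). Not all of the 12 could change a call. The fit without a filter repeated the main fit, since the filter removed 0 genes, and a threshold of 0.10 keeps every call made at 0.05. With each library left out, 2 to 4 of the 7 genes fell, with -0.94 to -0.74 log2 for Zfp36, -0.89 to -0.66 for Btg2, -0.74 to -0.62 for Tob1 and -0.50 to -0.40 for Btg1. Tob2 ran from -0.21 to -0.10, Zfp36l1 from -0.18 to -0.09 and Zfp36l2 from 0.05 to 0.17. None of the 7 changed sign in any setting run. The pair differences kept their calls under 4 other settings, and that of Btg2 and Btg1 ran from -0.39 to -0.25 with libraries left out. The r of Zfp36 and Btg2 ran from 0.87 to 0.96 and that of Tob1 and the early list from 0.84 to 0.95.

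Over all genes 119 were higher and 257 lower. With TMM scaling 182 were higher and 190 lower, with median-of-ratios scaling 182 and 191, and with quantile normalization 183 and 190. Library weights gave 245 and 416, the epithelial covariate 1 and 23, a threshold of 0.10 314 and 592, and leaving out libraries 6 to 110 and 54 to 245. The replicate numbers showed no pairing of the libraries (same-number r of deviations -0.14 to 0.19 over 4 pairs, 1 of 4 Tie1-WT libraries best with its own number). So few pairs cannot exclude a pairing. The replicate block gave 38 higher and 145 lower and kept the 4 falls. Tie1-CR replicate 5 has no Tie1-WT library of its number. The log2 differences of the block therefore repeat those without that library (median over all genes -0.0297 in both).

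Deadenylase genes had 3 falls with weights and 3 at 0.10. Decapping genes had 2 with weights, 4 at 0.10 and 0 to 1 with libraries left out. Other AU-rich binders had 0 with the covariate and 3 at 0.10, and described targets 2 with the covariate and 3 to 5 with libraries left out. For p53 targets the counts were 1, 4 at 0.10 and 1 to 3, and for early genes 3 with the covariate and 5 to 14. Ppp2r1a turned to 0.0158 log2 with TMM, 0.0161 with median-of-ratios scaling and 0.00101 with weights, and ran from -0.0247 to 0.00472 with libraries left out. Exosc10 ran from -0.00849 to 0.0287 with libraries left out. The causes were not tested. The planned tests of read counts were not run, since the table holds no verified counts. For the 7 genes alone, counting error would be at most 2.39% if each step of the values were 1 independent read, which an amplifying kit does not ensure. It is larger for listed genes of lower CPM.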
